A study of Mus musculus with 8 samples.

Results

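The array carries probes for 841 mid-length genomic intervals named by coordinates and probed separately on the forward and the reverse strand, and the question here was whether both strands of such an interval behaved alike in mouse embryos that differed in their father's Eed genotype. The intervals were chosen by name alone. A non-control probe counted when its name gave a chromosome, a start and an end on the mm9 build followed by F or R, when end minus start was at least 5000 and at most 39999 bp, and when the same start and end occurred with both letters. This took in 841 of the 3540 intervals that carry a strand letter, with 7343 of 55681 non-control probes (3733 forward and 3610 reverse). The intervals ran from 5025 to 39900 bp with a median of 14225 bp, the next longer interval probed on both strands was 40200 bp, and the array held no shorter one probed on both strands. The files do not say whether the letter names the strand of the transcript or of the probe, and forward and reverse below stand only for the letters F and R. They lie on chromosomes 1 to 19 and X, and 26 overlap the member before them. A strand had a median of 5 probes (1 to 10), and 484 intervals had equal numbers on both strands.

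Long intergenic non-coding RNAs (lincRNAs) are spliced transcripts from between protein-coding genes. Many were first marked out as stretches of active chromatin, which show where a transcribed unit begins and ends but not which strand is read, so that an array must ask both strands which one gives RNA. Some such loci give RNA from both strands, as overlapping antisense transcripts or from a promoter that fires both ways. Eed is a core subunit of Polycomb repressive complex 2 (PRC2), which places the repressive methyl marks on lysine 27 of histone H3 and is known to bind chromatin near many non-coding transcripts. The files name the intervals only by coordinates, so no gene name is attached to any of them here.

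RNA of single whole embryos at E8.5 (embryonic day 8.5), when somites, heart and neural folds are forming, was hybridised to 8 one-colour arrays. All 8 embryos were themselves heterozygous for the hypomorphic allele Eedl7Rn5-1989SB on a C57bl6/129 background and had wild-type mothers. HOM father embryos (n = 4) had fathers homozygous for the allele (Eed hypo/hypo), HET father embryos (n = 4) had heterozygous fathers (Eed hypo/wt), and each group held 2 females (HOM 1 and 2, HET 1 and 3) and 2 males (HOM 3 and 4, HET 2 and 4). The allele is hypomorphic and acts in the whole father, not in the germ line alone, and by the study's methods the fathers were brothers from a few litters, so that some embryos share a sire and p-values measure the spread between these embryos. The 4 arrays of each group sit on a slide of their own, so slide and father cannot be told apart in any father comparison below.

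A value is the log2 processed signal minus the 75th percentile of its array, so 0 is the brightness of a fairly bright probe. A probe was tested when it was well above background, and above the lowest 20% of signals, on at least 4 of the 8 arrays. The value of a strand is the mean of its tested probes, and a difference is HOM father minus HET father on the log2 scale, by limma with Benjamini-Hochberg adjustment over every tested feature of the array. "Called" means an adjusted p below 0.01 and at least a 2-fold difference. Probes differ in affinity, so the level of one strand was never read against that of the other, and the strand comparison rests on how each strand, and the forward minus reverse difference within each array, moved between father groups.

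Over the whole array 50.6% to 59.7% of probes were well above background, with HOM 1 (59.7%) and HET 1 (57.4%) highest in their groups, and no spot was saturated. Of the genes fixed as markers of somites, heart, neural tissue, primitive red cells and endoderm, 22 of 23 were above background on all 8 arrays. The trophoblast list had 3 of 4 matched genes and the decidua list 4 of 4 on all arrays, while Tpbpa, which marks spongiotrophoblast, was above background on none. Of the adult blood list, Ptprc, the pan-leukocyte phosphatase, was above background on no array, S100a8, a calcium-binding protein of neutrophils, on 6 (-2.51 in HOM father and -4.29 in HET father embryos, a difference of 1.78, adjusted p = 0.265) and its partner S100a9 on 2 (-7.20 and -4.45, not tested). The mean log2 level of the trophoblast list ranged from -1.95 to -0.02 in the HOM father group and from -1.75 to -1.20 in the HET father group, and that of the decidua list from -1.19 to 0.22 and from -2.24 to -0.50. Within these lists single genes differed widely, with Gcm1, a trophoblast transcription factor, at -1.07 (adjusted p = 0.0217), and the prolactin family members Prl3d1 at 1.88 (adjusted p = 0.208) and Prl8a2 at 2.97 (adjusted p = 0.215). No gene of these lists was called by father, and their part in the results below was not tested. In bulk embryos, fewer cells of a type and less RNA per cell cannot be told apart. Eed itself gave 4.72 ± 0.06 in the HOM father and 4.71 ± 0.05 in the HET father embryos (SD, n = 4; limma adjusted p = 0.870). The PRC2 members Ezh2, its methyltransferase (difference -0.15, adjusted p = 0.0516), and Suz12, a core subunit (-0.04, adjusted p = 0.700), were not called.

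Probes of the reverse strand were above background more often than probes of the forward strand on all 8 arrays. On the forward strand the share of probes well above background was 38.4%, 30.5%, 30.3% and 33.0% in HOM 1 to 4 and 34.4%, 29.9%, 26.3% and 27.4% in HET 1 to 4. On the reverse strand it was 47.8%, 36.7%, 37.4% and 39.0% in HOM 1 to 4 and 43.2%, 37.8%, 33.0% and 33.4% in HET 1 to 4. In the remaining strand-named intervals of the array the shares of both strands lay close together, between 27.5% and 41.1% forward and between 28.4% and 40.5% reverse. How the probes of each strand were chosen is not given in the sources used here, and the part of probe design in these shares was not tested.

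**Figure D1:**
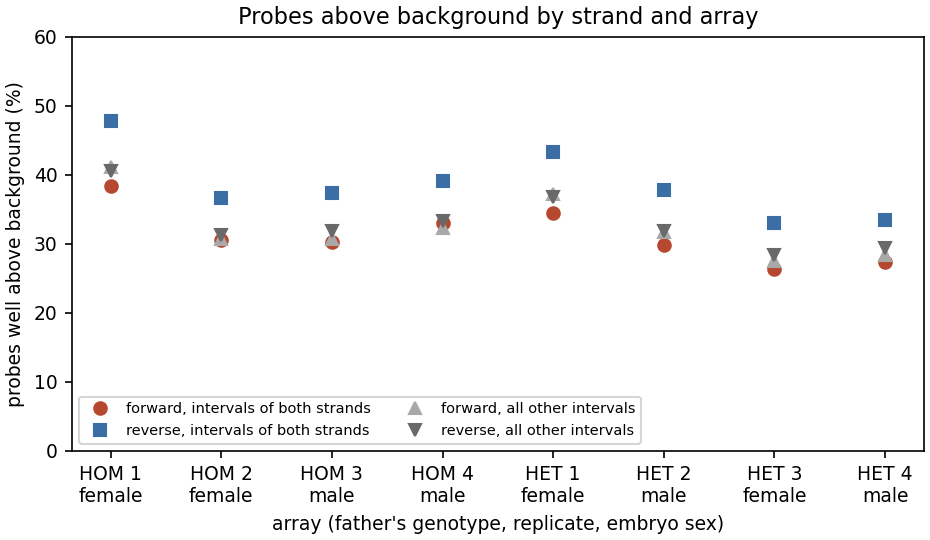
Percentage of probes well above background (vertical axis) on each of the 8 arrays (horizontal axis, by father's genotype, replicate and embryo sex), for the forward and reverse probes of the 841 intervals and of all other strand-named intervals. On every array the reverse probes of the 841 intervals (33.0% to 47.8%) lie above their forward probes (26.3% to 38.4%), while both strands of the other intervals nearly coincide.

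Signal from a single strand was common. Of the 841 intervals, 351 (41.7%) had a tested probe on both strands, 204 (24.3%) on the reverse strand alone, 152 (18.1%) on the forward strand alone, and 134 (15.9%) on neither. Under a stricter reading, 248 intervals had a probe above background on all 8 arrays on both strands, and 104 had such a probe on one strand and no probe above background on any array on the opposite strand. Both strands stayed below background on every array in 29 intervals. Intervals of 5 to 10 kb had both strands tested in 44.3% of cases, those of 10 to 20 kb in 39.1% and those of 20 to 40 kb in 42.9%. In all, 2472 of the 7343 member probes (33.7%; 1117 forward and 1355 reverse) were tested, against 53.4% of all probes on the array.

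Every member probe called by father was higher in the embryos of HOM fathers. These were 70 of 2472 tested member probes (2.83%), none was lower, and the background over all 29718 tested probes was 1.24% higher and 0.0269% lower. In the other strand-named intervals, too, no tested probe was called lower. Called higher were 3.85% of tested probes in longer intervals probed on both strands and 3.83% in longer ones probed on 1 strand. The shares were 1.89% in mid-length intervals probed on 1 strand and 1.63% in shorter ones. The excess and its direction were therefore not particular to the member intervals. The 70 probes, whose median difference was 1.20, lay on 67 strands of 66 intervals. In all 70 the father groups did not overlap, which the call threshold nearly ensures, so it adds no support to these probes. Of these, 41 were above background in each of the 4 HET father embryos and 9 in none, so that for those 9 only a bound exists. At an adjusted p below 0.05 with no fold limit, 639 member probes were higher and 92 lower, or 25.8% and 3.72% against a background of 12.3% and 8.69%. The median difference of all tested member probes was 0.16 against -0.02 for all tested probes. It was 0.17 in the longer intervals probed on both strands and 0.11 in the longer ones probed on 1 strand. In mid-length intervals probed on 1 strand it was 0.09, and in shorter ones 0.07. The difference went with signal. With the tested probes ranked by mean signal and split into 5 bins of like size, the member median from the dimmest to the brightest bin was 0.24, 0.16, 0.06, 0.01 and -0.07, and the median of all other probes 0.13, 0.02, -0.02, -0.06 and -0.09, with members above the other probes in each bin. Member probes were also crowded in the dim bins, with 1044 of 2472 in the dimmest and 89 in the brightest. The part of signal level in the father difference was not tested.

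At the level of strands, 38 of 1058 tested member strands were called, all higher with HOM fathers (3.59%), against a background of 3.05% higher and 0 lower over the 2525 tested strands of the array. They were 22 of 503 forward strands and 16 of 555 reverse strands. At an adjusted p below 0.05 with no fold limit, 408 member strands were higher and 22 lower (background 35% and 1.98%), and the groups did not overlap in 404 higher and 35 lower strands (background 35.2% and 3.13%). The share of member strands was therefore close to that of all strand-named intervals. The median of all member strands was 0.28, against 0.24 for all tested strands. Scaling to the array median in place of the 75th percentile shifted every difference down, so that the median of all tested probes moved from -0.02 to -0.21 and that of member strands from 0.28 to 0.09. The count of called member strands then was 20, by quantile normalisation 25 and by normexp background correction 13, and all 38 stayed higher with HOM fathers in these 3 settings.

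No interval was called on both strands. So few strands were called that this count says nothing of how the strands relate. In 11 intervals the forward strand was called beside a tested reverse strand and in 8 the reverse strand beside a tested forward strand, while in another 11 and 8 the opposite strand held no tested probe. Most called strands rested on a single probe. Of the 38, 33 had 1 tested probe, 11 of them because only 1 was designed, and the other 22 had 103 designed probes of which 22 were tested. In 11 of those 22 strands no further probe of the strand was above background on any array. Of the 5 called strands with more than 1 tested probe, 1 had all of them called and 4 had every tested probe higher at an adjusted p below 0.05. An example of disagreement is the forward strand of chr12:82495575-82516300, whose tested probes differed by 2.26 and by -0.21 and whose mean was 3.95, 3.92, 3.79 and 3.97 in the HOM father embryos and 2.94, 2.72, 2.93 and 2.94 in the HET father embryos, a difference of 1.02 (SE 0.08, adjusted p = 0.000163). On the reverse strand of chr11:95644899-95658549 both tested probes were higher, by 1.90 (adjusted p = 0.000509) and 0.41 (adjusted p = 0.0041). The first was above background on no HET father array, so the 2 sizes are not compared. In 31 strands a probe was called and the strand was not. The only interval with called probes on both strands was chr13:16050871-16065396. Its reverse strand has 1 probe, at -0.997, -0.86, -0.69 and -0.62 in the HOM father embryos and -1.88, -2.19, -1.81 and -1.88 in the HET father embryos, a difference of 1.15 (SE 0.12, adjusted p = 0.000351), while its forward strand has 3 tested probes whose differences ran from -0.12 to 2.21 with a mean of 0.72 (adjusted p = 0.00291).

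Over the 351 intervals with both strands tested, the father difference on the forward strand told little of that on the reverse strand. Both strands were higher with HOM fathers in 201 intervals, both lower in 31, and opposite in sign in 119. Pearson's r between the strands was 0.029 and Spearman's rho 0.11 (n = 351 intervals, which share the same 8 arrays and are a description only). When the brightest probe of each strand was taken the values were 0.022 and 0.077 (n = 351), and between the pair of brightest probes on the same strand they were 0.48 and 0.51 (n = 588 strands). These sets were not matched, since the 588 strands each had at least 2 tested probes and the 351 intervals include strands with 1. Noise in single-probe strands can lower the first values, so the contrast does not show that the strands are independent. Both kinds of pair share arrays and scaling, and the difference between them was not tested.

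At an adjusted p below 0.05 both strands differed by father in 61 of the 351 intervals, one strand in 158 and neither in 132, or 17.4%, 45% and 37.6% against 17.7%, 44.3% and 38% over the 463 intervals of the array with both strands tested. Among the 61, both strands were higher with HOM fathers in 56, by a median of 0.58 (0.27 to 1.42) on the forward and 0.61 (0.25 to 1.48) on the reverse strand. Those 56 are 16% of the 351, near the background of 16.6%, so the count says nothing particular of these intervals. In 9 of these 56 the strands also differed from each other at an adjusted p below 0.05. Ranked by the smaller of the 2 rises after the values were seen, the leading interval was chr1:94608820-94634671, with 0.85 forward (SE 0.07, adjusted p = 0.000199) and 1.00 reverse (SE 0.11, adjusted p = 0.000527) and a strand difference of -0.15 (SE 0.14, adjusted p = 0.492). Its reverse strand (1 tested of 5 probes) was above background on all 4 HOM father arrays but on only 1 HET father array. Most HET father values behind the reverse rise and the strand difference thus lay below background, and neither is read as a measured size. Both strands were lower in 1 interval, chr6:54591416-54597566, by -0.36 forward (adjusted p = 0.0284) and -0.45 reverse (adjusted p = 0.00336). In the other 4 of the 61 the strands went opposite ways, with the forward strand higher in chr14:20893694-20903726, chr15:8463685-8494960 and chr6:86776350-86799379 and the reverse strand higher in chr2:132079092-132087069. The forward strand of chr15:8463685-8494960 was above background on only 1 HET father array.

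**Figure D2:**
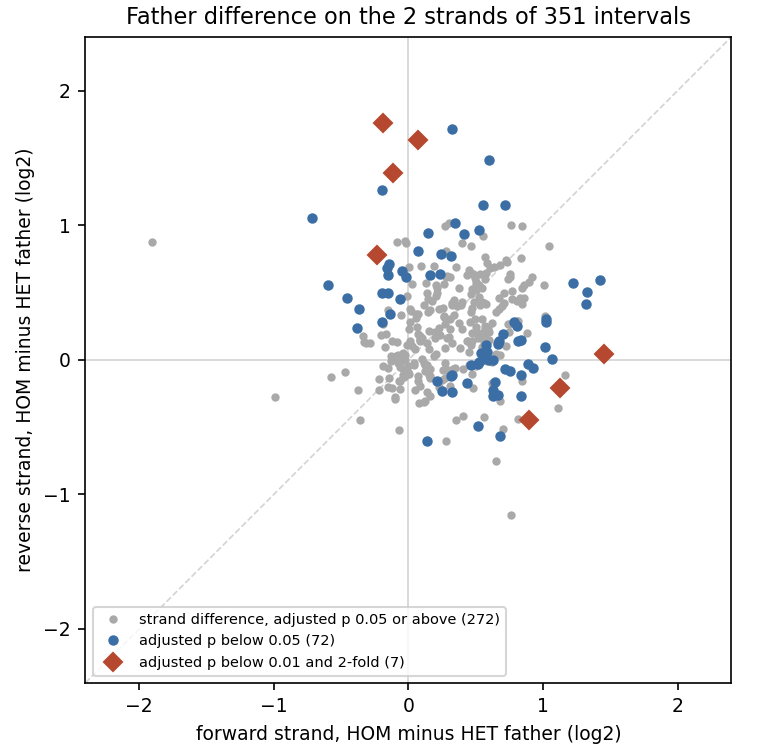
HOM father minus HET father difference on the forward strand (horizontal axis, log2) against that on the reverse strand (vertical axis, log2) for the 351 intervals with both strands tested, where the dashed line marks equal differences. The 7 diamonds mark called strand differences and 79 intervals in all had an adjusted p below 0.05, and most of the 351 lie where both strands were higher with HOM fathers (201 intervals).

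Testing forward minus reverse within each array cancels a log2 shift shared by all probes of an array, but not a shift that varies with signal. It gave 7 called intervals of 351, 3 with the forward strand and 4 with the reverse strand rising relative to its partner. With quantile normalisation 6 of the 7 stayed called, and the part of signal level in these differences was not tested. The background over the 463 intervals of the array with both strands tested was 3.02%, and 7 of 351 lies below it. At an adjusted p below 0.05 the strands differed in 79 intervals (46 forward, 33 reverse; background 22.7%), by a fitted 0.37 to 1.95 with a median of 0.71. The groups did not overlap in 97 (54 and 43; background 28.3%). Of the 19 intervals with one strand called and the opposite strand tested, 5 had a called strand difference and 17 one at an adjusted p below 0.05. Of the 158 intervals in which one strand alone passed 0.05, the strand difference passed it in 59, so in the other 99 a difference between the strands was not shown. The median standard error of a strand difference was 0.18. The call leans on the choice of probes. When all designed probes entered the strand means, dim ones included, none of the 7 passed (0 of 7), and with normexp background correction 3 of 7 did, while all 7 kept their direction in both settings.

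In 4 of the 7 intervals both strands were measured on all arrays. The first is chr6:23105525-23118900 (13375 bp). Its reverse strand, covered by 1 probe, gave -0.66, -0.59, -0.64 and -0.69 in the HOM father embryos and -2.12, -2.31, -2.35 and -2.35 in the HET father embryos, a difference of 1.64 (SE 0.08, adjusted p = 3.1e-05). Its forward strand (1 tested of 5 probes) gave -3.08, -3.32, -3.26 and -3.23 in the HOM father embryos and -3.45, -3.30, -3.31 and -3.11 in the HET father embryos, a difference of 0.07 (SE 0.09, adjusted p = 0.603). The groups were well apart on the reverse strand and overlapped on the forward strand, and the strand difference was -1.57 (SE 0.14, adjusted p = 0.000397).

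The second, chr17:26911397-26917047 (5650 bp), is the most densely probed of the 7, with 10 probes on each strand. The forward strand, measured by all 10, gave -2.00, -1.96, -1.97 and -2.02 in the HOM father embryos and -1.85, -1.93, -1.91 and -1.82 in the HET father embryos, a difference of -0.11 (SE 0.06, adjusted p = 0.203) with single probes between -0.32 and 0.11. The reverse strand, measured by 1 probe, gave -1.32, -1.45, -1.65 and -1.57 in the HOM father embryos and -2.73, -2.98, -2.87 and -2.96 in the HET father embryos, a difference of 1.39 (SE 0.10, adjusted p = 0.000119). The remaining 9 reverse probes were above background on no array. The strand difference of -1.50 (SE 0.12, adjusted p = 0.000397) thus sets 10 forward probes, whose groups were apart by little and did not pass the test, against a single reverse probe.

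**Figure D3:**
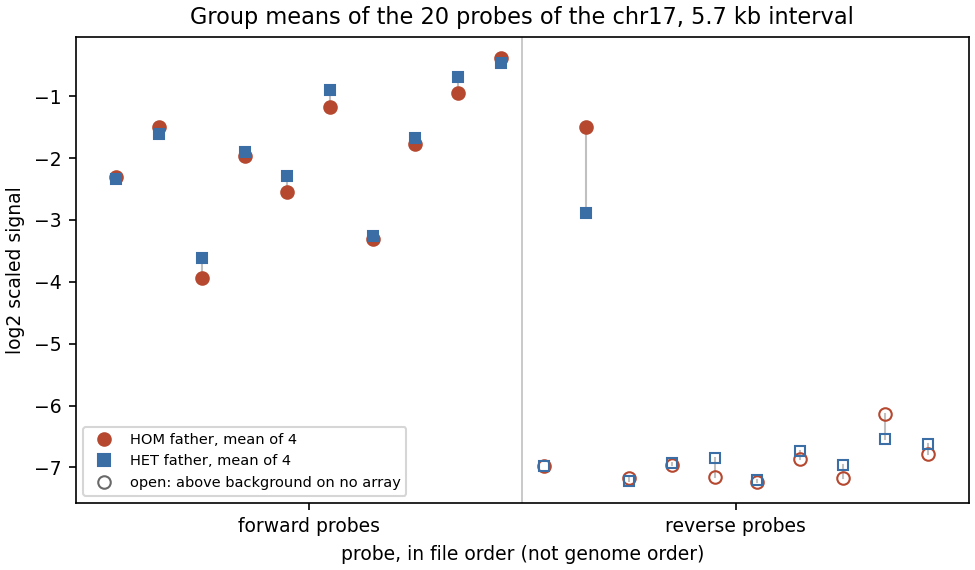
Group mean (log2 signal relative to the 75th percentile, vertical axis) of each of the 20 probes of chr17:26911397-26917047 in the embryos of HOM and HET fathers (n = 4 each), with forward probes on the left and reverse probes on the right in file order. Open symbols are probes above background on no array. The 10 forward probes differ by -0.32 to 0.11 between groups and 1 reverse probe by 1.39.

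In the third, chr6:86776350-86799379 (23029 bp), the strands moved in opposite directions and each passed 0.05 on its own. The forward strand (1 tested of 2 probes) gave -2.73, -2.91, -3.13 and -3.22 in the HOM father embryos and -4.03, -3.97, -3.76 and -3.82 in the HET father embryos, a difference of 0.90 (SE 0.12, adjusted p = 0.00102). The reverse strand (5 of 5 probes) gave -1.58, -1.57, -1.57 and -1.68 in the HOM father embryos and -1.18, -1.25, -1.06 and -1.12 in the HET father embryos, a difference of -0.45 (SE 0.07, adjusted p = 0.00172), and all 5 reverse probes were lower, by -0.66 to -0.17. The groups did not overlap on either strand, and the strand difference was 1.34 (SE 0.12, adjusted p = 0.000397). The fall of the reverse strand was under 2-fold.

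The fourth, chr2:132079092-132087069 (7977 bp), had the mirror pattern at a smaller size. The forward strand (1 probe) gave -1.05, -0.96, -0.89 and -0.90 in the HOM father embryos and -0.70, -0.70, -0.73 and -0.74 in the HET father embryos, a difference of -0.23 (SE 0.07, adjusted p = 0.0252). The reverse strand (1 tested of 2 probes) gave -2.61, -2.59, -2.36 and -2.56 in the HOM father embryos and -3.32, -3.41, -3.40 and -3.11 in the HET father embryos, a difference of 0.78 (SE 0.10, adjusted p = 0.000717). Neither strand was called alone and the groups overlapped on neither, and the strand difference of -1.01 (SE 0.11, adjusted p = 0.000886) only just exceeded 2-fold. It fell short of 2-fold with quantile normalisation (-0.93), with normexp (-0.79) and without HOM 3 (-0.98), HET 2 (-0.97) or HET 3 (-0.98).

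In the other 3 intervals one strand was not above background on every array. In chr17:17462450-17488725 (26275 bp) the reverse strand (1 tested of 5 probes) gave -4.40, -4.21, -3.97 and -4.25 in the HOM father embryos and -6.04, -6.27, -5.68 and -5.86 in the HET father embryos and was above background on all 4 HOM father and none of the HET father arrays, which makes it at least 1.92-fold higher with HOM fathers (adjusted p = 0.000178). It entered the test through the HOM father arrays alone, so this p rests on HET father values below background and supports nothing beyond the bound. Such a bound sets the HOM father mean against, on each HET father array, the higher of the probe's own value and the lowest value that counted as well above background. That lowest value belongs to the array and is not the detection limit of the probe. The words at least, here and below, hold only under this rule and on the processed signal. The forward strand of this interval (4 tested of 5 probes) gave 0.16, 0.22, 0.08 and 0.22 in the HOM father embryos and 0.44, 0.30, 0.35 and 0.36 in the HET father embryos, a difference of -0.19 (SE 0.07, adjusted p = 0.0628). The groups were apart on both strands, and the fitted strand difference of -1.95 (SE 0.16, adjusted p = 0.000397) includes values below background and is not read as a measured size. With normexp background correction the strand difference was -0.64 and was not called.

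In chr3:51138643-51146693 (8050 bp), with 1 probe a strand, the forward strand gave 1.49, 1.49, 1.30 and 1.40 in the HOM father embryos and 0.10, 0.01, -0.03 and -0.21 in the HET father embryos, a difference of 1.45 (SE 0.09, adjusted p = 6.91e-05). The reverse strand, above background on 7 of 8 arrays, gave -4.46, -5.01, -4.39 and -4.08 in the HOM father embryos and -4.45, -4.69, -4.55 and -4.43 in the HET father embryos, a difference of 0.05 (SE 0.19, adjusted p = 0.872). The strand difference was 1.40 (SE 0.22, adjusted p = 0.00478), and only the forward groups were apart. That difference lost its call without HOM 1, HET 2, HET 3 or HET 4 (adjusted p = 0.0152, 0.0102, 0.0110 and 0.0120).

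In chr15:8463685-8494960 (31275 bp) the forward strand (1 tested of 3 probes) gave -4.42, -4.09, -4.50 and -4.32 in the HOM father embryos and -5.30, -5.59, -5.41 and -5.55 in the HET father embryos, a difference of 1.13 (SE 0.11, adjusted p = 0.000295), but it was above background on only 1 of the 4 HET father arrays. It lost its call with quantile normalisation (0.92), median scaling (0.94), normexp (0.34) and no filter on dim probes (0.42, adjusted p = 0.721). The reverse strand (3 of 3 probes) gave -0.63, -0.72, -0.61 and -0.68 in the HOM father embryos and -0.36, -0.48, -0.49 and -0.48 in the HET father embryos, a difference of -0.21 (SE 0.07, adjusted p = 0.0401). Both strands of this interval were apart between the groups, in opposite directions, and the fitted strand difference was 1.34 (SE 0.13, adjusted p = 0.000487). The forward separation and the strand difference rest mostly on HET father values below background and are not read as measured sizes. The intervals on chromosomes 3 and 15 lie outside the rule for named intervals and are named because only 7 were called.

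**Figure D4:**
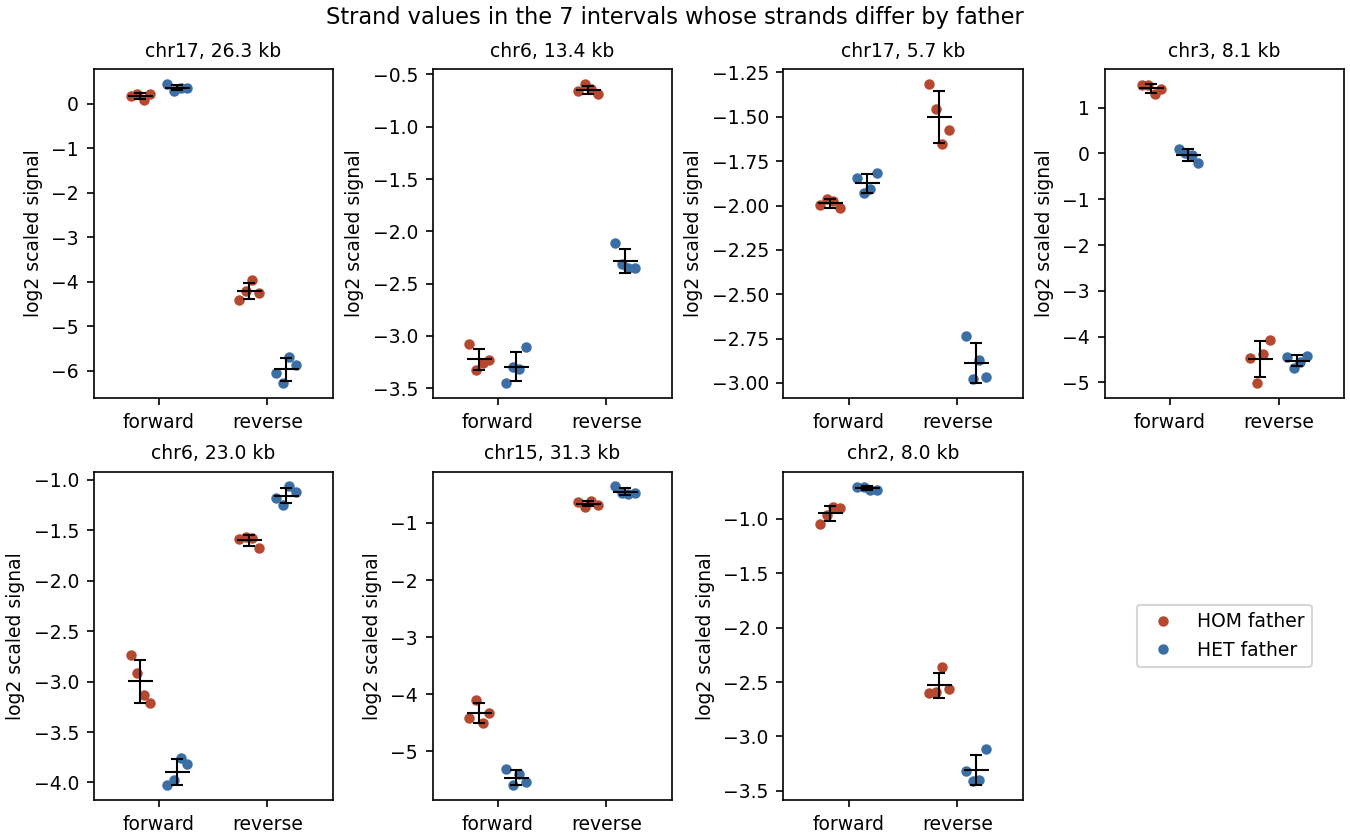
Strand values (log2 signal relative to the 75th percentile, vertical axes with separate scales) in the 7 intervals whose strands differed by father, named by chromosome and length, for HOM father and HET father embryos (points, n = 4 each; bars are mean ± SD). In each panel one strand is higher with HOM fathers by a fitted 0.78 to 1.76 and its partner differs by -0.45 to 0.07.

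The strands with the largest fitted differences were above background on few or no arrays of the HET father group, and bounds are not ranked against measured rises. The forward strand of chr19:29969050-29980675 (1 probe) gave -1.92, -2.07, -2.19 and -2.03 in the HOM father embryos and -5.30, -5.55, -6.06 and -6.38 in the HET father embryos and was above background on the HOM father arrays alone, at least 8.16-fold higher (adjusted p = 6.28e-05). The reverse strand of chr10:21855725-21867925 (1 probe) gave -3.15, -2.57, -2.75 and -2.70 in the HOM father embryos and -5.57, -6.52, -5.54 and -5.66 in the HET father embryos, at least 5.10-fold higher (adjusted p = 0.000163). Both were above background in every HOM father embryo and in no HET father embryo, and the opposite strand of each was above background on no array. They too entered the test through the HOM father arrays alone, so their p-values support nothing beyond the bounds. The bounds also lean on the background correction. With normexp the fitted log2 differences were 1.95 and 1.33 for these strands, both smaller than the stated bounds.

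The reverse strand of chr3:50934868-50939918 (1 probe) gave -4.16, -3.58, -3.89 and -3.76 in the HOM father embryos and -5.95, -7.23, -6.88 and -6.13 in the HET father embryos, at least 2.46-fold higher (adjusted p = 0.000391). A further such strand, the reverse one of chr2:153325670-153352170, was at least 1.61-fold higher (adjusted p = 0.00180), and with the reverse strand of chr17:17462450-17488725 described above these were the 5 called strands above background on no HET father array. The same limit holds for the p-values of these 3. With normexp the reverse strands of chr3:50934868-50939918 (0.80) and chr17:17462450-17488725 (0.54) were no longer called and fell below their stated bounds. Next in size came strands above background on 1 HET father array, so most HET father values behind their differences and p-values lay below background. The reverse strand of chr13:60508775-60534625 (1 tested of 5 probes) gave -4.59, -3.44, -4.02 and -3.28 in the HOM father embryos and -5.06, -5.27, -5.64 and -6.24 in the HET father embryos, a difference of 1.72 (SE 0.35, adjusted p = 0.00526) as a strand, although its probe missed the probe threshold (adjusted p = 0.0129) and the strand lost its call without HOM 2, HOM 3, HOM 4, HET 3 or HET 4 (adjusted p = 0.0106 to 0.0158). It also lost its call with quantile normalisation (1.52, adjusted p = 0.0101), median scaling (1.53, adjusted p = 0.0122), normexp (0.63, adjusted p = 0.0207), no filter on dim probes (0.18, adjusted p = 0.747) and a replicate block (adjusted p = 0.0263). The forward strand of chr14:106250821-106261843 (1 tested of 5 probes) gave -3.78, -4.08, -4.03 and -3.84 in the HOM father embryos and -5.44, -5.48, -5.89 and -5.76 in the HET father embryos, a difference of 1.71 (SE 0.13, adjusted p = 0.000137). Its call was lost with normexp (0.60) and with no filter on dim probes (0.44, adjusted p = 0.651). Over the 33 called strands above background on at least 1 HET father array the differences ran from 1.01 to 1.72 with a median of 1.23, and the other 5 have bounds only. Some of the 33 still include HET father values below background. Over the 22 with at least 1 probe above background on all 4 HET father arrays the differences ran from 1.01 to 1.64 with a median of 1.225. In the reverse strand of chr11:95644899-95658549 and the forward strand of chr19:23254618-23268776 that probe was not the called one. Their called probes (1.90 and 1.13) were above background on 0 and on 1 of the HET father arrays, so these strand means include values below background. Over all 38 the groups overlapped in none, which the call threshold nearly ensures and which adds no support, and 22 strands had a probe above background on all 8 arrays. For the forward strand of chr9:78107225-78118850, called at 1.23, 1 HET father array was flagged and dropped, which left 7 arrays. The opposite strand was above background on no array in 8 of the 38.

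Among intervals that were not called, the 3 with the highest summed signal are shown for their values, so the absence of a call is part of how they were picked. In chr12:119825125-119850750 the forward strand gave 6.34, 6.57, 6.35 and 6.43 in the HOM father embryos and 6.62, 6.51, 6.63 and 6.49 in the HET father embryos, a difference of -0.14 (SE 0.08, adjusted p = 0.215), and the reverse strand 2.10, 2.20, 2.09 and 2.27 in the HOM father embryos and 1.65, 1.75, 1.91 and 1.99 in the HET father embryos, a difference of 0.34 (SE 0.09, adjusted p = 0.0219). The strand difference of -0.48 (SE 0.12, adjusted p = 0.0298) passed 0.05 but not the call. In chr17:39960567-39992817, read by 4 forward and 5 reverse probes, the differences were -0.19 (SE 0.07, adjusted p = 0.0875) forward and -0.04 (SE 0.09, adjusted p = 0.732) reverse, with a strand difference of -0.14 (SE 0.10, adjusted p = 0.346). In chr7:108209996-108216032 they were -0.0042 (SE 0.09, adjusted p = 0.976) and -0.09 (SE 0.08, adjusted p = 0.387). On the strands of these last 2 intervals no father difference was shown.

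By length, 3.87% of tested member strands of 5 to 10 kb, 4.07% of 10 to 20 kb and 2.73% of 20 to 40 kb were called. By chromosome, 3, 6, 13 and 15 held 4 called strands each and 16 and X none. Of 20 known long non-coding RNA genes set beside the intervals, 10 matched a probe, 8 were above background on all 8 arrays, 9 were tested and none was called. Kcnq1ot1, the antisense transcript of the imprinted Kcnq1 domain, differed by -0.57 (adjusted p = 0.0092), short of 2-fold.

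Embryo sex left no call among member probes. None of 2472 was called between females and males (lowest adjusted p = 0.0168), with 39 higher and 97 lower in females at an unadjusted p below 0.05, against a background of 0.0606% called and 5.22% unadjusted over the array. For the interaction of father and sex no member probe was called (lowest adjusted p = 0.0178; 56 and 73 at an unadjusted p below 0.05), and the background was 0% called and 4.52% unadjusted. Fitted on strand values, 1 member strand was called for the interaction, 1 of the 2525 strands of the array (background 0.0396%).

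That strand was the forward strand of chr5:137392195-137426421 (34226 bp), with 7 tested of 9 probes. Its values were -0.67 and -0.64 in the females and 0.02 and 0.05 in the males of HOM fathers, and -0.55 and -0.43 in the females and -2.20 and -2.23 in the males of HET fathers. The males of HET fathers stood apart below the other 6 embryos. The father difference was -0.16 in females and 2.25 in males, an interaction (females minus males) of -2.41 (SE 0.15, adjusted p = 0.00695), and over both sexes the father difference of 1.04 missed the threshold (adjusted p = 0.116). All 7 tested probes showed it, with father differences of 1.78 to 3.11 in males and -0.33 to 0.05 in females. The probes that gave 3.11 and 2.36 in males were above background on only 6 arrays and were dimmest in the males of HET fathers, so these sizes lean on dim values. The probes above background on all 8 arrays gave 1.78 to 2.39 in males.

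The reverse strand of the same interval (5 tested of 10 probes) did not share the pattern. It gave -3.26, -3.22, -3.32 and -3.09 in the HOM father embryos and -4.04, -4.14, -4.07 and -4.02 in the HET father embryos, a father difference of 0.82 in females and 0.88 in males. The groups were apart in both sexes (0.85 over both sexes, adjusted p = 0.000221), and the interaction was -0.06 (SE 0.17, adjusted p = 0.997). An overlapping interval probed on the forward strand alone, chr5:137395007-137412976, gave an interaction of -2.43 (SE 0.19, adjusted p = 0.0140), and a short one overlapping both, chr5:137411861-137413010, one of -1.54 (SE 0.18, adjusted p = 0.107). Leaving out any single array kept the interaction between -2.47 and -2.35 with adjusted p of 0.0368 to 0.0769, none of them a call. Each cell of this comparison holds 2 embryos, and 1 of the 4 father and sex groups carries it. In the labels the 2 HOM father males share an identifier prefix that the HOM father females do not, whereas among HET father embryos the shared prefix joins a female and a male. Sex and identifier therefore coincide in the HOM father group and cannot be told apart there.

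**Figure D5:**
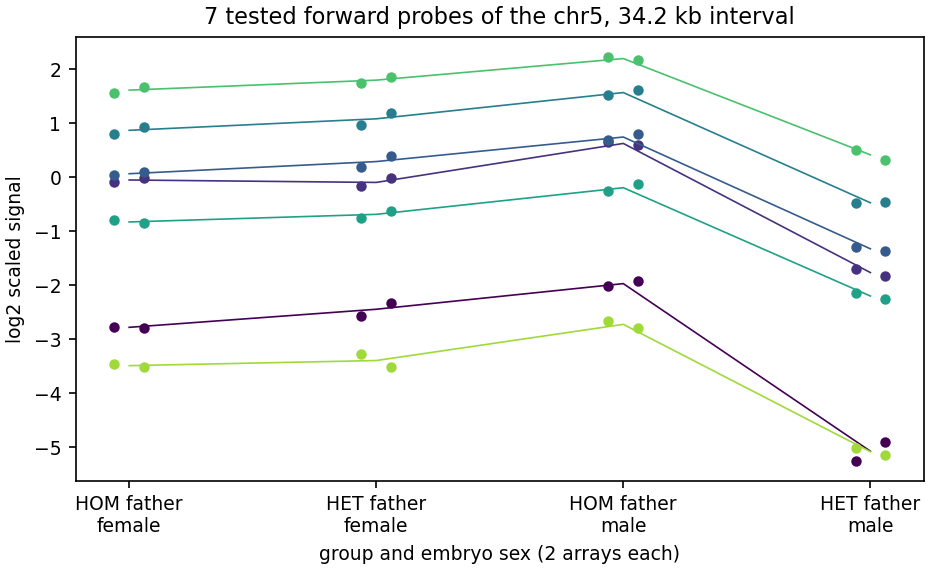
Log2 signal relative to the 75th percentile (vertical axis) of the 7 tested forward probes of chr5:137392195-137426421 (one colour each, points are arrays and lines join group means) in the 4 groups of father's genotype and embryo sex (horizontal axis, n = 2 each). All 7 probes are lower in the males of HET fathers, 1.78 to 3.11 below the males of HOM fathers, while the females of both father groups differ by -0.33 to 0.05. Over the probes above background on all 8 arrays the males differ by 1.78 to 2.39.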

How the data were processed

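Total RNA of 8 whole E8.5 embryos was labelled with Cy3 and hybridised by the authors to Agilent SurePrint G3 Mouse GE 8x60K arrays. The values used are the deposited processed signal intensities of Feature Extraction 11.0.1.1, background-subtracted and spatially detrended by the authors, and a deposited series table of the same intensities served as an alternative (largest relative difference 0.497%). Arrays have no read depth, and their number limits the precision. RNA was DNase-treated. Groups came from the labelled father's genotype.

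Flagged spots were dropped, log2 intensities were taken relative to the 75th percentile of each array, and spots of a probe were averaged. Following the study's filter, a probe needed to be well above background and above the lowest 20% on at least 4 of 8 arrays. Strand values are means of tested probes, leaving out 2 probes with a missing array where the strand had another tested probe. limma 3.58.1 in R 4.3.3 tested father, sex given father, and their interaction, with Benjamini-Hochberg adjustment over all probes, strands or intervals of the array, and a call needed an adjusted p below 0.01 and 2-fold. Alternatives were quantile and median scaling, normexp background correction (offset 50) run on median rather than mean foreground signals, other filters, other strand summaries, sex or identifier terms, a replicate block, and leaving out arrays. Tests were checked on simulated data: of 50 strands each raised by 1.5 or by 3, 46 and 49 were called among 2525. Of 50 strand differences each raised by the same amounts, 46 and 50 were called among 463. The simulated noise was independent between probes, with no slide effect, no shift with signal and no background floor. The check therefore shows only that the fit recovers such rises, not how it behaves on dim probes or with slide and father confounded.

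Named intervals were up to 8 called strand differences measured on all arrays, up to 5 with a bound, up to 6 strands with the largest rise, and the 3 brightest not called. Other intervals are named because a count was 5 or fewer or were chosen after their values were seen. Members, lists and this rule were chosen with earlier results of these data known. No probe sequence or mm9 genome was used here, so no sequence is shown.

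Replicate numbers were not taken to pair the embryos. They do follow array position, since numbers 2, 3 and 4 sat at the same row and column on both slides. Across numbers 1 to 4 the correlation of same-numbered deviations was 0.19, -0.09, -0.13 and 0.15. These few values cannot settle whether the numbers mark pairs. With a replicate block 2 of the 7 called strand differences stayed called.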

Additional observations from a re-analysis of the deposited data

Results flagged for a closer look

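Gaps were examined in 113 sets of 4 arrays, and 8 had an array set apart from the other 3, where chance gives about 1 in 20, or 5.65. In the HET father group these were array 2 for the reverse strand of chr10:21855725-21867925 (-6.52, others -5.66 to -5.54), the forward strand of chr12:82495575-82516300 (2.72, others 2.93 to 2.94) and the reverse strand of chr2:153325670-153352170 (-5.84, others -5.35 to -5.28), and array 1 for the forward strand of chr13:95613081-95640256 (-1.71, others -1.89 to -1.86) and the reverse strand of chr15:8463685-8494960 (-0.36, others -0.49 to -0.48). In the HOM father group it was array 4 for the forward strand of chr15:10363330-10371830 (-0.48, others -0.64 to -0.63), the reverse strand of chr6:86776350-86799379 (-1.68, others -1.58 to -1.57) and the forward strand of chr7:108209996-108216032 (1.22, others 0.88 to 0.92). The chr10 and chr2 values lie below background.

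An interaction of father and embryo sex was called on the forward strand of chr5:137392195-137426421, at -2.41 (limma adjusted p = 0.00695), carried by both males of HET fathers. With 2 embryos for each father and sex, the call was lost when any single array was left out.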

How the results depend on the processing

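Called member probes numbered 45 with quantile normalisation, 37 with median scaling, 19 with normexp, 41 when every array had to be above background, 731 at an adjusted p below 0.05 with no fold limit, and 46 to 86 when an array was left out (46 without HOM father replicate 4). Called member strands numbered 25, 20, 13, 21 and 430 in the same order, 11 with no filter on dim probes, and 26 to 44 with an array left out. Called strand differences numbered 4 with normexp, 1 with no filter, 79 at 0.05, 14 with the brightest probe of each strand, and 5 to 11 with an array left out (11 without HET father replicate 1). With the replicate block 42 member probes and 2 strand differences were called, and 2 of 4 arrays correlated best with their own number. The sex count became 1 at 0.05. The interaction count of probes became 1 with normexp and 6 with trended, robust variance, and stayed at 0 with any array left out. The strand interaction count was 0 with median scaling, with no filter, with any array left out and without both arrays of the upper slide row, the last added after seeing the data together with all alternatives of that count. Without those arrays (HOM 1 and HET 1) 50 probes, 26 strands and 7 strand differences were called.

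Differences near 0 changed sign. With quantile normalisation these were the reverse strands of chr17:39960567-39992817 (0.020), chr3:51138643-51146693 (-0.16) and chr7:108209996-108216032 (0.020), the forward strands of chr6:23105525-23118900 (-0.065) and chr7:108209996-108216032 (0.013) and the strand difference of the latter (-0.0071). With median scaling they were the reverse strand of chr3:51138643-51146693 (-0.14) and the forward strand of chr6:23105525-23118900 (-0.12), and with the brightest probe the forward strands of chr17:26911397-26917047 (0.078) and chr7:108209996-108216032 (0.0045). With an array left out the forward strand of chr7:108209996-108216032 ranged from -0.083 to 0.029, the reverse strand of chr17:39960567-39992817 from -0.094 to 0.0070 and the reverse strand of chr3:51138643-51146693 from -0.090 to 0.223. Without both upper-row arrays the forward strands of chr6:23105525-23118900 and chr7:108209996-108216032 were at -0.029 and 0.032. Of 772 values for named strands and differences, 698 kept direction and call, 46 lost and 8 gained it. Dim probes limit the strand comparison, since 33 of 38 called strands rest on 1 tested probe.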
